A study of Mus musculus with 38 samples.

Results

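The response to chemotherapy 1 day after the last dose was compared between 2 mouse models of high-grade serous ovarian cancer (HGSOC) that grow as omental tumors, 60577 and HGS2. The quantity described is a difference of differences, called the interaction. It is the log2 fold change of treated against control tumors in 60577 minus the same log2 fold change in HGS2, both at the first collection (TP1). A positive value means that treatment moved the gene further up, or less far down, in 60577 than in HGS2, and the text calls such a gene higher. Of 16241 genes tested, 235 were called, 162 higher and 73 lower, at an adjusted p below 0.05 and an absolute log2 value above 1.

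The contrast rests on 12 of the 38 libraries of the series, 3 tumors in each of 4 groups. Cells of the 60577 line were injected into the peritoneal cavity of female FVB mice, and cells of the HGS2 line into that of female C57BL/6J mice, at 8 to 9 weeks of age. Treated mice were dosed 3 times, once a week, with 20 mg/kg carboplatin plus 10 mg/kg paclitaxel, starting 21 days (60577) or 49 days (HGS2) after injection, and control mice received vehicle. TP1 tumors were therefore collected 36 days (60577) or 64 days (HGS2) after injection. Each model is a single cell line in a single strain, so the cell line, the strain of the host and the age of the tumor cannot be told apart. The alleles that the tumor cells carry are not given in the sources used here. The total of estimated counts per tumor ranged from 23044297 to 34334182 in the 4 groups.

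Carboplatin crosslinks DNA and paclitaxel stabilizes microtubules, so both act mainly on cells that replicate their DNA or divide. In an omental tumor these are malignant cells, but also fibroblasts, endothelium and immune cells that have entered the cell cycle. Dying cells are cleared by macrophages, and the fibroblasts around them deposit collagens, glycoproteins and proteoglycans, the extracellular matrix that gives omental metastases their stiffness. RNA of a whole tumor mixes all of these cells, and fewer cells of a type cannot be told apart from less RNA per cell.

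The tumors held markers of the labeled tissue in unequal amounts. Epithelial markers (14 genes such as Epcam and Krt7) summed to 1670 to 2070 CPM (counts scaled to the size of the library) in 60577 controls and 362 to 706 CPM after treatment, against 66.4 to 461 CPM and 69.8 to 197 CPM in HGS2. Markers of adipocytes, the main cell of the normal omentum, summed to 1000 to 1100 CPM in 60577 controls, 896 to 3080 CPM in treated 60577 tumors, 762 to 956 CPM in HGS2 controls and 830 to 2160 CPM in treated HGS2 tumors. Digestive enzyme genes of pancreatic acinar cells stood apart in 2 HGS2 tumors. Their sum was 100000 CPM in HGS2 control 3 and 2550 CPM in HGS2 treated tumor 1, against 8.63 to 130 CPM in the other 10 tumors. The cytoplasmic 7SL RNAs took 3.59 to 4.91% of the counts in 60577 controls and 7.87 to 15.4% in treated 60577 tumors. In HGS2 controls they took 3.49, 4.94 and 13% of the counts, and in treated HGS2 tumors 4 to 7.63%.

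Many genes passed the test of treatment in 60577, and few or none in HGS2. The interaction uses the same tumors as the response of each model, so their values are given side by side. In 60577 alone, treatment changed 1605 genes (9.88% of those tested), 1014 upward and 591 downward. In HGS2 alone 0 genes (0%) were called by edgeR, with a lowest adjusted p of 0.655 and 1040 genes at an unadjusted p below 0.05, while DESeq2 called 11 and limma-voom 0. A gene not called in HGS2 may still have moved. HGS2 controls differed more from each other than 60577 controls did, but the fit estimated the spread jointly over both models. The SE of Mcm6, for example, was 0.32 in 60577 and 0.31 in HGS2. What the spread among HGS2 controls did to the number of calls was not tested. Without HGS2 control 2, 138 genes were called in HGS2. The 235 genes of the interaction make up 1.45% of those tested, the 162 higher genes 0.997% and the 73 lower genes 0.449%. Without the requirement on size, 288 genes had an adjusted p below 0.05, and 3058 an unadjusted p below 0.05 (10.3% of all genes higher, 8.53% lower). The median interaction over all genes was 0.03.

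For the 162 higher genes the median log2 fold change was 1.87 in 60577 and -0.10 in HGS2. For the 73 lower genes these medians were -1.48 and 0.09. The HGS2 fold change lay within 1 log2 unit of 0 for 145 of the higher and 67 of the lower genes, as it did for 15104 of all 16241 genes, and no gene was called in opposite directions in the 2 models. Treated and control tumors did not overlap in 60577 for 160 higher and 73 lower genes, where 55.9% of all genes did not overlap. In HGS2 they did not overlap for 8 and 12 genes, where 5.21% of all genes did not.

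**Figure D1:**
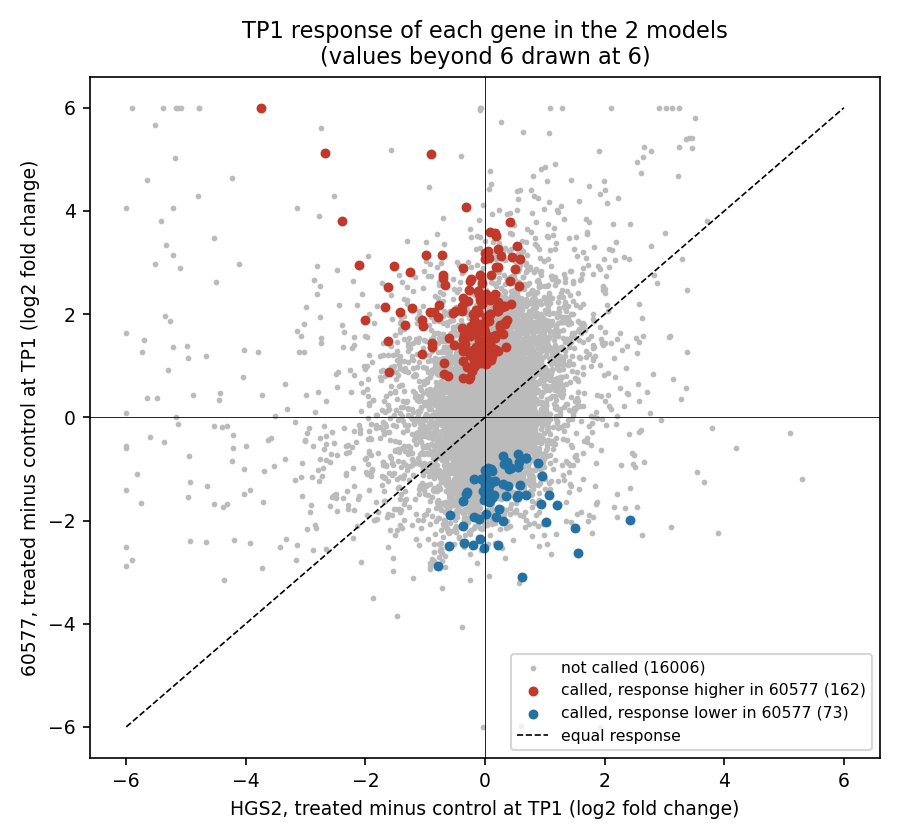
Each point is 1 of 16241 genes, with its log2 fold change at TP1 in HGS2 on the x axis and in 60577 on the y axis, both treated against control. The 162 genes called higher (red) and the 73 called lower (blue) spread along the y axis and mostly lie within 1 log2 unit of 0 on the x axis, away from the dashed line of equal response.

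The models also began from different levels in the called genes. The TP1 controls are part of the contrast that picked these genes, so a gap between the models at TP1 is partly built in. The median gene among the 162 higher ones went from 10.8 to 33.8 CPM in 60577, while in HGS2 it was at 31.2 CPM in controls and 27.2 CPM after treatment. Treated 60577 tumors thus lay near the level that HGS2 tumors had with and without drug. The median lower gene went from 29.0 to 9.81 CPM in 60577 and was at 8.74 and 11.3 CPM in HGS2. A gap in the same direction stood in a separate set of controls, those of the second collection (TP2, 7 days after the last dose). In those controls the median log2 difference, HGS2 minus 60577, was 0.88 for the higher and -0.78 for the lower genes, against 0.03 for all genes. There HGS2 lay above 60577 for 142 of the 162 higher genes, and for 8498 of all 16241 genes. Of the higher genes 62 were called above, where 9.4% of all genes were called above. HGS2 lay above 60577 for only 6 of the 73 lower genes, and 29 were called below, where 6.94% of all genes were called below.

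The calls depended on single tumors of both models. Leaving out each of the 12 tumors in turn gave between 57 and 649 calls. The number rose above 1.5 times the full count without HGS2 control 1 (632 calls) or HGS2 control 2 (649 calls), or without HGS2 treated tumor 2 (373 calls). It fell by as much without HGS2 treated tumor 1 (57 calls), without 60577 control 1, 2 or 3 (60, 140 and 118 calls), and without 60577 treated tumor 1 or 3 (92 and 95 calls). A fit of the 12 TP1 tumors alone called 10 genes, and leaving out both HGS2 tumors with high acinar genes left 56 calls, 47 of them among the 235. All 235 genes kept their direction in every alternative, 46 were called in each of the 12 fits with a tumor left out, and these 46 were also called with the acinar genes or the 7SL share as a covariate. Of the 55 called genes named in the text, 34 lost the call without HGS2 treated tumor 1 and 35 without 60577 control 1. The number was 26 and 27 without 60577 controls 2 and 3, 29, 10 and 28 without 60577 treated tumors 1, 2 and 3, 17, 7 and 4 without HGS2 controls 3, 2 and 1, and 6 and 7 without HGS2 treated tumors 2 and 3.

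**Figure D2:**
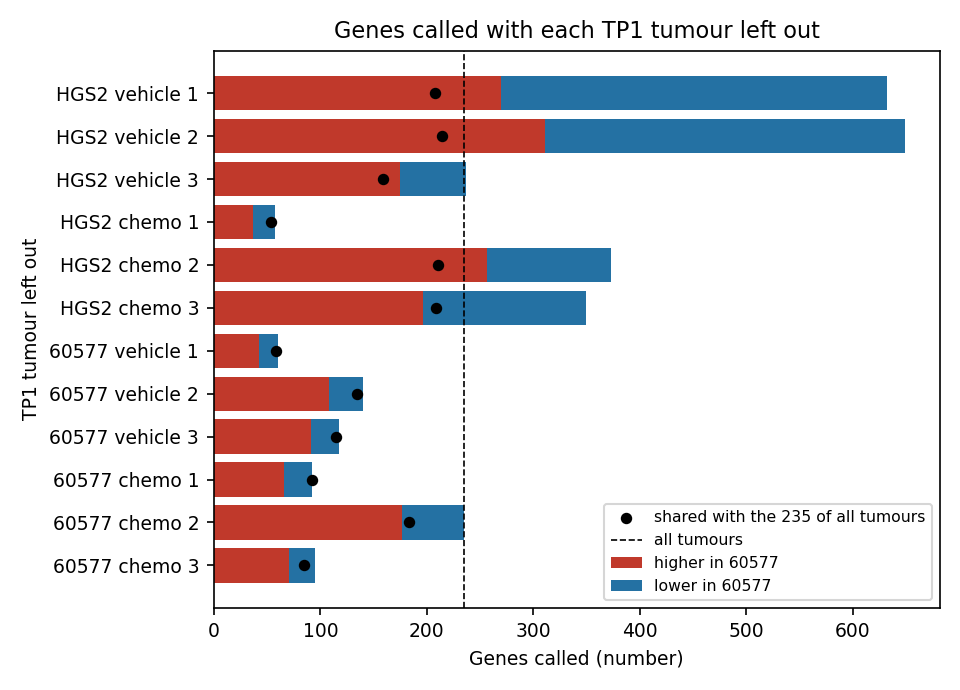
Bars give the number of genes called in the interaction when the TP1 tumor named on the y axis is left out, split into genes higher and lower in 60577, and points give how many of them are among the 235 called with all tumors (dashed line). The number runs from 57 without HGS2 treated tumor 1 to 649 without HGS2 control 2.

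Only 7 genes were called in every one of the 26 alternatives, and they are named here because of that, after their values were seen. Those with the lower response in 60577 were Tle4, a corepressor of the Groucho family, and Igsf9, an adhesion protein of the immunoglobulin superfamily. Those with the higher response were Prrx1, a homeobox factor of mesenchymal cells, Folr2, the folate receptor beta of tissue macrophages, Dse, the epimerase that turns chondroitin sulfate chains into dermatan sulfate, Rap2b, a small GTPase of the Ras family, and Ttc12, a protein needed to assemble the dyneins of cilia.

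Tle4 (ENSMUSG00000024642, chr19:14448150-14598051 on the minus strand of GRCm38) had the lowest p-value of the contrast. It was at 84.1, 102 and 99.2 CPM in 60577 controls and at 35.8, 39.6 and 41.3 CPM in treated 60577 tumors. HGS2 values were 26.3, 31.5 and 29.4 CPM in controls and 38.5, 30.9 and 37.4 CPM after treatment. Every treated 60577 tumor lay below every 60577 control, while the HGS2 groups overlapped, and the interaction was -1.58 ± 0.20 on the log2 scale (SE, adjusted p 0.000391). Igsf9 (ENSMUSG00000037995, chr1:172481788-172498878) went from 57.3, 82.6 and 75.6 CPM to 15.2, 24.2 and 14.2 CPM in 60577. HGS2 controls held 6.29, 7.28 and 6.87 CPM of it and treated HGS2 tumors 7.83, 8.23 and 9.22 CPM. The groups of each model did not overlap, in opposite directions, and the interaction was -2.31 ± 0.38 (adjusted p 0.00404), although the HGS2 difference alone was not called (log2 0.31 ± 0.27).

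Rap2b (ENSMUSG00000036894) was at 27, 29.1 and 30.6 CPM in 60577 controls and 74.2, 76 and 84 CPM after treatment. Its HGS2 values were 87.8, 75.6 and 69.5 CPM in controls and 67.8, 89.6 and 88.8 CPM after treatment. Treated 60577 tumors therefore reached the range of both HGS2 groups, with an interaction of 1.35 ± 0.22 (adjusted p 0.00404). Dse (ENSMUSG00000039497) was at 20.7, 28.6 and 26.9 CPM in 60577 controls and 65.9, 66.3 and 71.1 CPM in treated 60577 tumors, which stayed below the 86.1 to 105 CPM of all 6 HGS2 tumors. Its interaction was 1.47 ± 0.26 (adjusted p 0.00655). Ttc12 (ENSMUSG00000040219) rose in 60577 from 2.57, 2.45 and 2.74 CPM to 11.3, 8.08 and 12.8 CPM, above the 3.87 to 6.25 CPM of the HGS2 tumors, with an interaction of 2.44 ± 0.36 (adjusted p 0.00364).

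**Figure D3:**
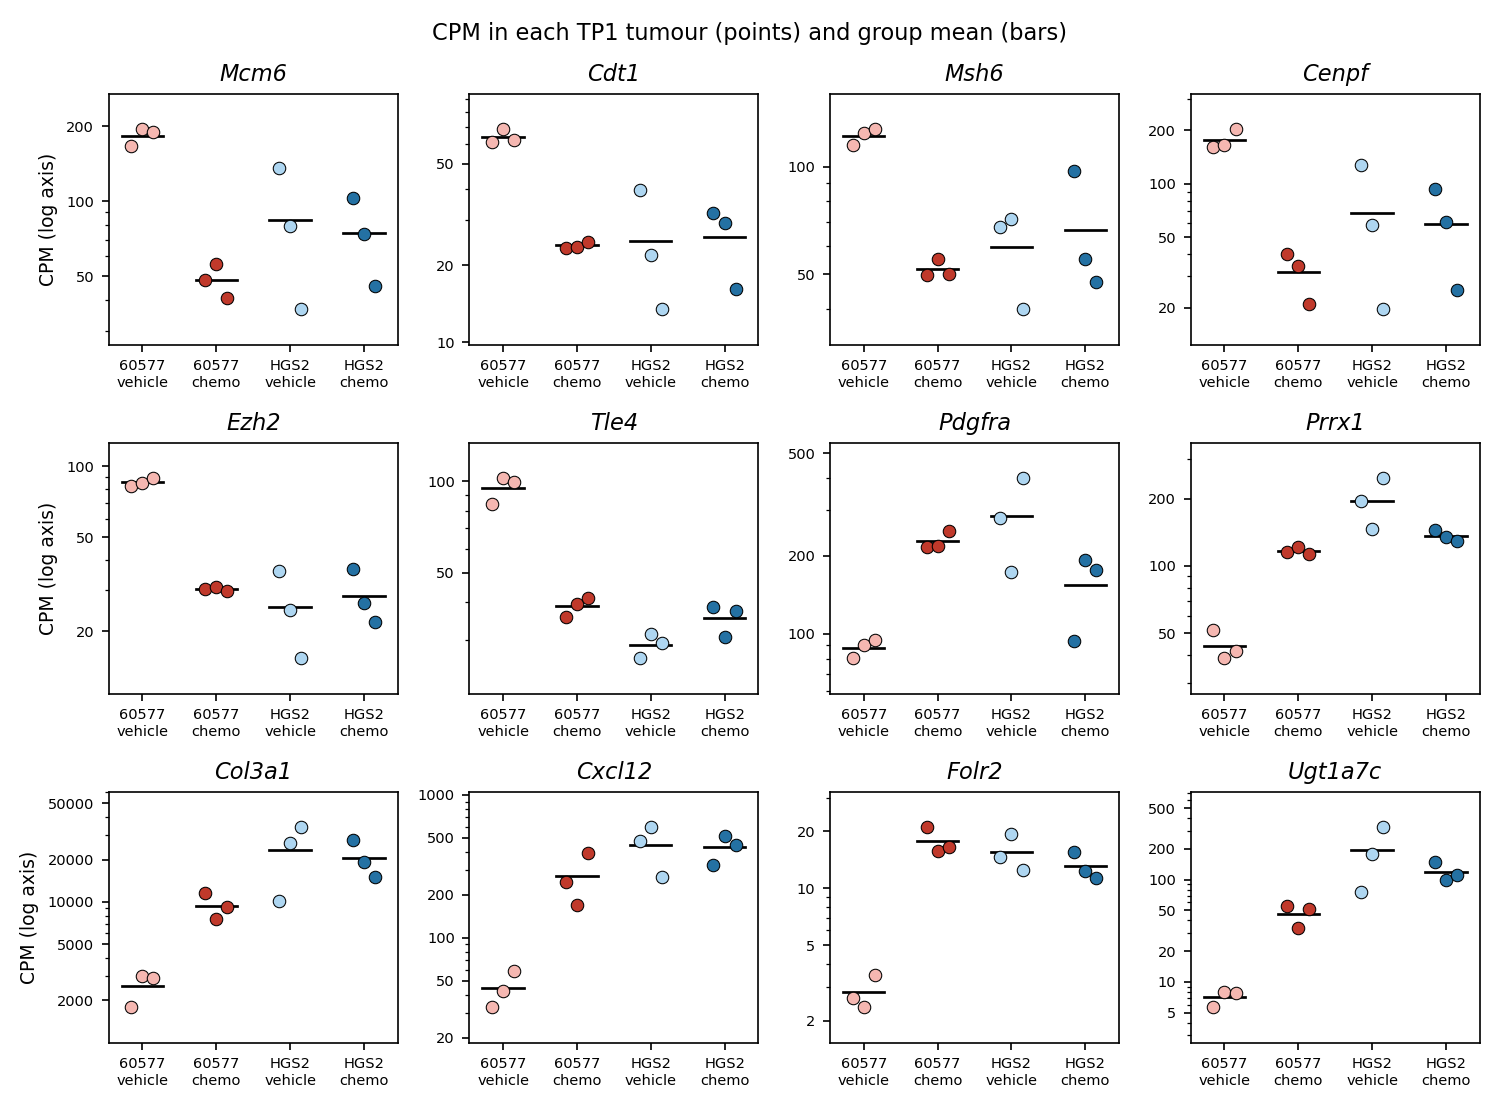
Points are the 3 tumors of each TP1 group and bars the group means for 12 genes, in CPM on a log axis, with vehicle meaning control and chemo meaning treated. In 60577 the treated tumors separate from the controls for each gene, downward for the cell division genes and Tle4, while the HGS2 groups overlap or, for Prrx1, lie apart in the other direction.

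Genes of the cell division machinery had the same sign throughout. The 30 mitosis genes tested all had a negative interaction, with a median of -1.49, where the median over all genes was 0.03. They fell in 60577, where all 30 were called lower, as were 591 of all 16241 genes. Their median log2 fold change was -1.84 in 60577 and -0.32 in HGS2. Of the 30, 2 were called in the interaction (background 0.449%; 0 to 30 across the alternatives) and 23 had an unadjusted p below 0.05 with the lower sign (background 8.53%). The median ran from -2.27, without HGS2 control 1, to -0.75, without both HGS2 tumors with high acinar genes. The summed level of the list spread widely among HGS2 controls, at 2590, 1140 and 465 CPM, and was 1560, 1250 and 571 CPM in treated HGS2 tumors. In 60577 it was 1590 to 1830 CPM in controls and 380 to 541 CPM after treatment.

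The called members were Cenpf, a protein of the outer kinetochore, and Ect2, the exchange factor that starts the contraction that splits dividing cells. Cenpf (ENSMUSG00000026605) went from 161, 166 and 202 CPM to 40.3, 34.5 and 20.9 CPM in 60577. HGS2 controls held 127, 58.2 and 19.7 CPM and treated HGS2 tumors 93, 60.7 and 25.1 CPM, so the HGS2 groups covered the same range. The interaction was -2.27 ± 0.60 (adjusted p 0.0478), and it passed the test in 2 of 12 fits with a tumor left out, with -1.79 (adjusted p 0.169) without HGS2 treated tumor 1. Ect2 had an interaction of -2.09 ± 0.53 (adjusted p 0.0384) and passed in 4 of 12 such fits. Ncapd2, a subunit of the condensin complex that compacts chromosomes, is not on the list and was picked after its values were seen. It fell in 60577 from 88.3 to 102 CPM to 30.6 to 36.2 CPM, with an interaction of -1.51 ± 0.39 (adjusted p 0.0434) that passed in 3 of 12 such fits.

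DNA replication genes had the same sign. All 30 had a negative interaction, with a median of -1.06 (60577 -1.33, HGS2 -0.20). In 60577 alone 22 were called lower, as were 591 of all 16241 genes. In the interaction 2 were called (background 0.449%) and 20 had an unadjusted p below 0.05 with the lower sign (background 8.53%). Across the alternatives 0 to 21 were called, and the median ran from -1.63, without HGS2 control 1, to -0.53, without both HGS2 tumors with high acinar genes. Mcm6 (ENSMUSG00000026355, chr1:128331590-128359664), a subunit of the helicase that unwinds DNA ahead of the fork, was at 167, 194 and 189 CPM in 60577 controls and at 48.2, 55.8 and 40.9 CPM after treatment. HGS2 controls held 136, 79.3 and 36.9 CPM and treated HGS2 tumors 103, 73.6 and 45.7 CPM. The 60577 groups were far apart and the HGS2 groups overlapped over their whole range, with an interaction of -1.74 ± 0.44 (adjusted p 0.0401) that passed in 5 of 12 fits with a tumor left out. Cdt1, which loads that helicase onto origins, had 60.8 to 68.3 CPM in 60577 controls, 23.5 to 24.8 CPM after treatment and 13.5 to 39.5 CPM in HGS2 tumors. Its interaction was -1.45 ± 0.38 (adjusted p 0.0478), and it passed in 2 of 12 such fits. Without HGS2 treated tumor 1 the values were -1.43 for Mcm6 (adjusted p 0.144) and -1.27 for Cdt1 (adjusted p 0.146).

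Of 22 DNA repair genes, 3 were called lower (background 0.449%; 0 to 11 across the alternatives), and the median was -0.90. At an unadjusted p below 0.05, 13 were lower (background 8.53%) and 2 were higher (background 10.3%). Among the called genes, Msh6 takes part in the recognition of mismatched bases, and Brca2 acts in the repair of broken DNA by homologous recombination. Msh6 (ENSMUSG00000005370) was at 115, 124 and 127 CPM in 60577 controls and 49.8, 55.1 and 50 CPM after treatment, and at 67.6, 71.2 and 40 CPM and 97.1, 55.3 and 47.5 CPM in HGS2. Its interaction of -1.40 ± 0.27 (adjusted p 0.00967) passed in all 12 fits with a tumor left out, and came to -0.79 (adjusted p 0.0363) without both HGS2 tumors with high acinar genes.

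Brca2 (ENSMUSG00000041147) fell in 60577 from 42.2 to 55.9 CPM to 13.6 to 20.1 CPM and was at 13.9 to 27.3 CPM in HGS2. Its interaction of -1.39 ± 0.36 (adjusted p 0.0406) passed in 4 of 12 fits with a tumor left out, and was -1.11 (adjusted p 0.147) without HGS2 treated tumor 1. Rad51b, which also acts in homologous recombination and was picked after its values were seen, went from 4.89 to 5.36 CPM to 1.77 to 1.97 CPM in 60577, against 2.61 to 3.66 CPM in all HGS2 tumors. Its interaction of -1.50 ± 0.31 (adjusted p 0.0139) passed in all 12 such fits. Ezh2, the methyltransferase of lysine 27 of histone H3 and likewise picked afterward, fell from 82.6, 85.2 and 88.9 CPM to 30.3, 30.8 and 29.5 CPM in 60577. HGS2 controls held 36.1, 24.6 and 15.4 CPM and treated HGS2 tumors 36.6, 26.2 and 21.8 CPM. The interaction of Ezh2 was -1.66 ± 0.30 (adjusted p 0.00705), and it also passed in all 12 such fits.

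Many genes of this machinery are known to be driven by E2F factors, which bind the letters TTTCCCGC, TTTCGCGC, TTTGCCGC or TTTGGCGC. These letters were searched on both strands in the 250 bases before the RefSeq start (GRCm38.p6). A promoter was at hand for 48 of the 73 lower genes, and 5 of them (10.4%) held a match. The share was 2.44% among 123 higher genes and 3.7% among the 11257 promoters of all genes tested. A match is a string of letters, not evidence of binding. The promoters of 3 of the 5 genes are shown because their genes act in replication, repair and chromosome compaction as described above, with each match in capitals. Mcm6 holds 3 matches, of which a pair overlaps, in chr1:128359706-128359955 (minus strand), Brca2 holds 1 in chr5:150522371-150522620 (plus strand) and Ncapd2 holds 1 in chr6:125191587-125191836 (minus strand).
Mcm6: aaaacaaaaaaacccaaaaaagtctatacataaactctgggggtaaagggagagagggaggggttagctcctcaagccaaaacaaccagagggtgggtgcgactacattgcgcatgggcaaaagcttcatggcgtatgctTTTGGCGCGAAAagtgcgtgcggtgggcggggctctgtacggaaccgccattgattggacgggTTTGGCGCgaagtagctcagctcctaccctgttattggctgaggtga
Brca2: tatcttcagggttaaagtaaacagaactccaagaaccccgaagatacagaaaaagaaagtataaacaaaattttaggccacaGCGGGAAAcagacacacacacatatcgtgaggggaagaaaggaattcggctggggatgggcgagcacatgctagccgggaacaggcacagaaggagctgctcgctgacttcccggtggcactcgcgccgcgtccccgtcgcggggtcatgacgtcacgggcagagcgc
Ncapd2: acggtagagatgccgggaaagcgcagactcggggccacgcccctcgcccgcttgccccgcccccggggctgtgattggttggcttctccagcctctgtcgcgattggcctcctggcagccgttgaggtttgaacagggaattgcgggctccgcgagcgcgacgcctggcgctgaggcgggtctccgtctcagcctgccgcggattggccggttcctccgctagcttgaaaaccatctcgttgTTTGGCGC
The other lower genes with a match were Tmpo and Zfp367. The letters GAGGAAGT of the myeloid factor PU.1 stood in 2.44% of higher, 0% of lower and 3.09% of all promoters, and the AP-1 letters TGANTCA in 9.76%, 2.08% and 5.77%.

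The summed level of the epithelial markers fell in 60577. It was 1670 to 2070 CPM in controls and 362 to 706 CPM after treatment, as given above. As a list, however, these markers had a median log2 fold change of -0.96 in 60577 and -1.14 in HGS2, and 0 of 14 were called in 60577 alone. Their median interaction was 0.22, with 0 of 14 called by edgeR and 0 at an unadjusted p below 0.05. This median changed sign to -1.0 without HGS2 control 3. The 13 mesothelial genes had a median of -1.25, 12 of them negative, with 0 called (up to 9 in an alternative). At an unadjusted p below 0.05, 2 were on the lower side (background 8.53%). Among them, Wt1 had an interaction of -1.67 ± 0.59 (adjusted p 0.122). Wt1 was at 401 CPM in the cultured 60577 line and 266 CPM in the HGS2 line, and Pkhd1l1 of this list at 742 and 407 CPM. Krt19 is on both lists, so the mesothelial list does not separate mesothelium from tumor cells. The part of either cell type in the fall of the division genes was not tested. Cultured cells of both lines expressed those genes, with Mcm6 at 331 CPM in the 60577 line and 122 CPM in the HGS2 line. Of the 73 lower genes, 91.8% reached 1 CPM in the 60577 line and 84.9% in the HGS2 line, against 77.3% and 75.5% of all genes tested.

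The p53 targets, which report DNA damage where p53 works, had 0 calls past the limit on size among 30 genes (up to 3 in an alternative). Their median was 0.36 (60577 0.69, HGS2 0.15). At an unadjusted p below 0.05, 12 were on the higher side (background 10.3%) and 1 on the lower side (background 8.53%). Bax, which opens the outer mitochondrial membrane in apoptosis, went from 19.9, 21.3 and 20.6 CPM to 51.7, 48.6 and 59.8 CPM in 60577. The corresponding HGS2 values were 39.6, 27.1 and 30.1 CPM in controls and 33, 47.4 and 45.2 CPM after treatment. Its interaction was 0.99 ± 0.24 (adjusted p 0.0307), just short of the size limit. Mdm2, the ligase that degrades p53, had an interaction of 0.84 ± 0.21 (adjusted p 0.0361), with log2 fold changes of 1.34 ± 0.15 in 60577 and 0.49 ± 0.15 in HGS2. Its groups did not overlap in either model, at 36.7 to 43.1 CPM and 86.1 to 123 CPM in 60577 and at 42.1 to 54.6 CPM and 67.6 to 70.9 CPM in HGS2. Of these values only that of 60577 and the interaction passed the test.

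On the higher side, fibroblast and matrix genes were called from several lists. All 21 fibroblast genes had a positive interaction, with a median of 1.03 (60577 0.89, HGS2 -0.12). Of these, 2 were called (background 0.997%, 1 to 4 across the alternatives) and 6 had an unadjusted p below 0.05 (background 10.3%). Pdgfra (ENSMUSG00000029231, chr5:75152292-75198215), the receptor of platelet-derived growth factor that marks fibroblasts, was at 80.5, 90.4 and 94 CPM in 60577 controls and at 217, 218 and 250 CPM after treatment. HGS2 controls had 281, 173 and 399 CPM and treated HGS2 tumors 93.3, 192 and 177 CPM. It rose in 60577 (log2 1.37 ± 0.27), had a log2 fold change of -0.88 ± 0.27 in HGS2 that was not called, and an interaction of 2.25 ± 0.38 (adjusted p 0.00447). Prrx1 (ENSMUSG00000026586, chr1:163245119-163313710) went from 51.8, 38.9 and 41.6 CPM to 116, 121 and 113 CPM in 60577. In HGS2 it was at 195, 146 and 246 CPM in controls and at 145, 135 and 129 CPM after treatment. The groups did not overlap in either model and pointed in opposite directions, and the interaction was 1.93 ± 0.34 (adjusted p 0.00655). Both genes passed in all 12 fits with a tumor left out.

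Fibrillar collagens and the enzymes that process them had a median of 0.75 over 24 genes, 21 of them positive, and it remained between 0.62 and 0.92 in all alternatives. Of these, 2 were called (background 0.997%, 0 to 2 across the alternatives) and 8 had an unadjusted p below 0.05, all higher (background 10.3%). Col3a1, the chain of type III collagen, was at 1800, 2970 and 2870 CPM in 60577 controls and at 11500, 7600 and 9130 CPM after treatment. HGS2 tumors held 10100, 26100 and 33800 CPM in controls and 27700, 19200 and 15000 CPM after treatment. The interaction was 2.06 ± 0.54 (adjusted p 0.0452). Col5a1, which nucleates collagen fibrils, was at 227 to 432 CPM and 612 to 1020 CPM in 60577 and at 1830 to 3300 CPM in all HGS2 tumors, with an interaction of 1.5 ± 0.38 (adjusted p 0.0425). These calls were among the less stable, passing in 3 (Col3a1) and 5 (Col5a1) of 12 fits with a tumor left out. Without 60577 control 1 the adjusted p was 0.129 for both.

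Ddr2, a receptor kinase that binds fibrillar collagen and that was picked after its values were seen, had a larger interaction of 3.22 ± 0.57 (adjusted p 0.00705). It was at 7.5, 13.4 and 11.8 CPM in 60577 controls and 69.3, 82.1 and 41 CPM after treatment, against 468, 162 and 163 CPM and 157, 186 and 156 CPM in HGS2. HGS2 control 1 stood far above the other HGS2 tumors, and the call passed in all 12 fits with a tumor left out. The matrix glycoproteins and proteoglycans had 0 of 25 called (up to 5 in an alternative), with a median of 1.19. At an unadjusted p below 0.05 stood 8 of them, all higher (background 10.3%). Emilin1, an elastic fiber glycoprotein, and Vcan, the large proteoglycan versican, had interactions of 1.38 ± 0.41 (adjusted p 0.0754) and 1.78 ± 0.55 (adjusted p 0.0793). The 21 basement membrane genes had a median of 0.15 and 0 called. At an unadjusted p below 0.05, 3 were higher (background 10.3%) and 1 lower (background 8.53%). Their median changed sign to -0.35 without HGS2 control 3. Laminin alpha 4 (Lama4, 1.12 ± 0.37, adjusted p 0.0983) and nidogen 1 (Nid1, 1.64 ± 0.54, adjusted p 0.0971) had the lowest p-values there.

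Matrix proteases had a median of 1.21 and 2 of 24 called higher (background 0.997%, 0 to 4 across the alternatives). At an unadjusted p below 0.05 stood 8 of them, all higher (background 10.3%). Mmp19, a secreted metalloproteinase, went from 18.1, 18.4 and 24 CPM to 122, 65.6 and 106 CPM in 60577, and was between 35.9 and 88.5 CPM in the HGS2 tumors. Its interaction of 2.36 ± 0.50 (adjusted p 0.0148) passed in 9 of 12 fits with a tumor left out. Adam8, a membrane metalloproteinase of myeloid cells, went from 17.5, 23.6 and 21 CPM to 368, 75.7 and 409 CPM in 60577, where treated tumor 2 stayed well below the other two. HGS2 tumors held 23.5 to 87.3 CPM, and the interaction was 3.37 ± 0.87 (adjusted p 0.0437), passing in 4 of 12 such fits. Of the TGF-beta ligands, receptors and feedback genes, which control fibroblast activation, 1 of 24 was called higher (background 0.997%, 0 in some alternatives). The median was -0.05. That gene was Tgfbr3, the coreceptor betaglycan, with 64.3 to 96 CPM and 155 to 158 CPM in 60577, 124 to 241 CPM and 66 to 127 CPM in HGS2, and an interaction of 1.75 ± 0.42 (adjusted p 0.0311). It passed in 6 of 12 such fits, with 1.5 (adjusted p 0.108) without HGS2 treated tumor 1.

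The fibroblast marker sums include Pdgfra and Prrx1 and come from the same tumors, so they are not a separate measure. They were 2420 to 2830 CPM in 60577 controls and 3120 to 4820 CPM after treatment, against 6930 to 12200 CPM and 7870 to 10700 CPM in HGS2. Cultured tumor cells expressed stromal genes too, with Col3a1 at 343 CPM in the cultured 60577 line and 4801 CPM in the HGS2 line, and Cxcl12 at 47.6 and 553 CPM. Which cells carried the difference was not tested.

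**Figure D4:**
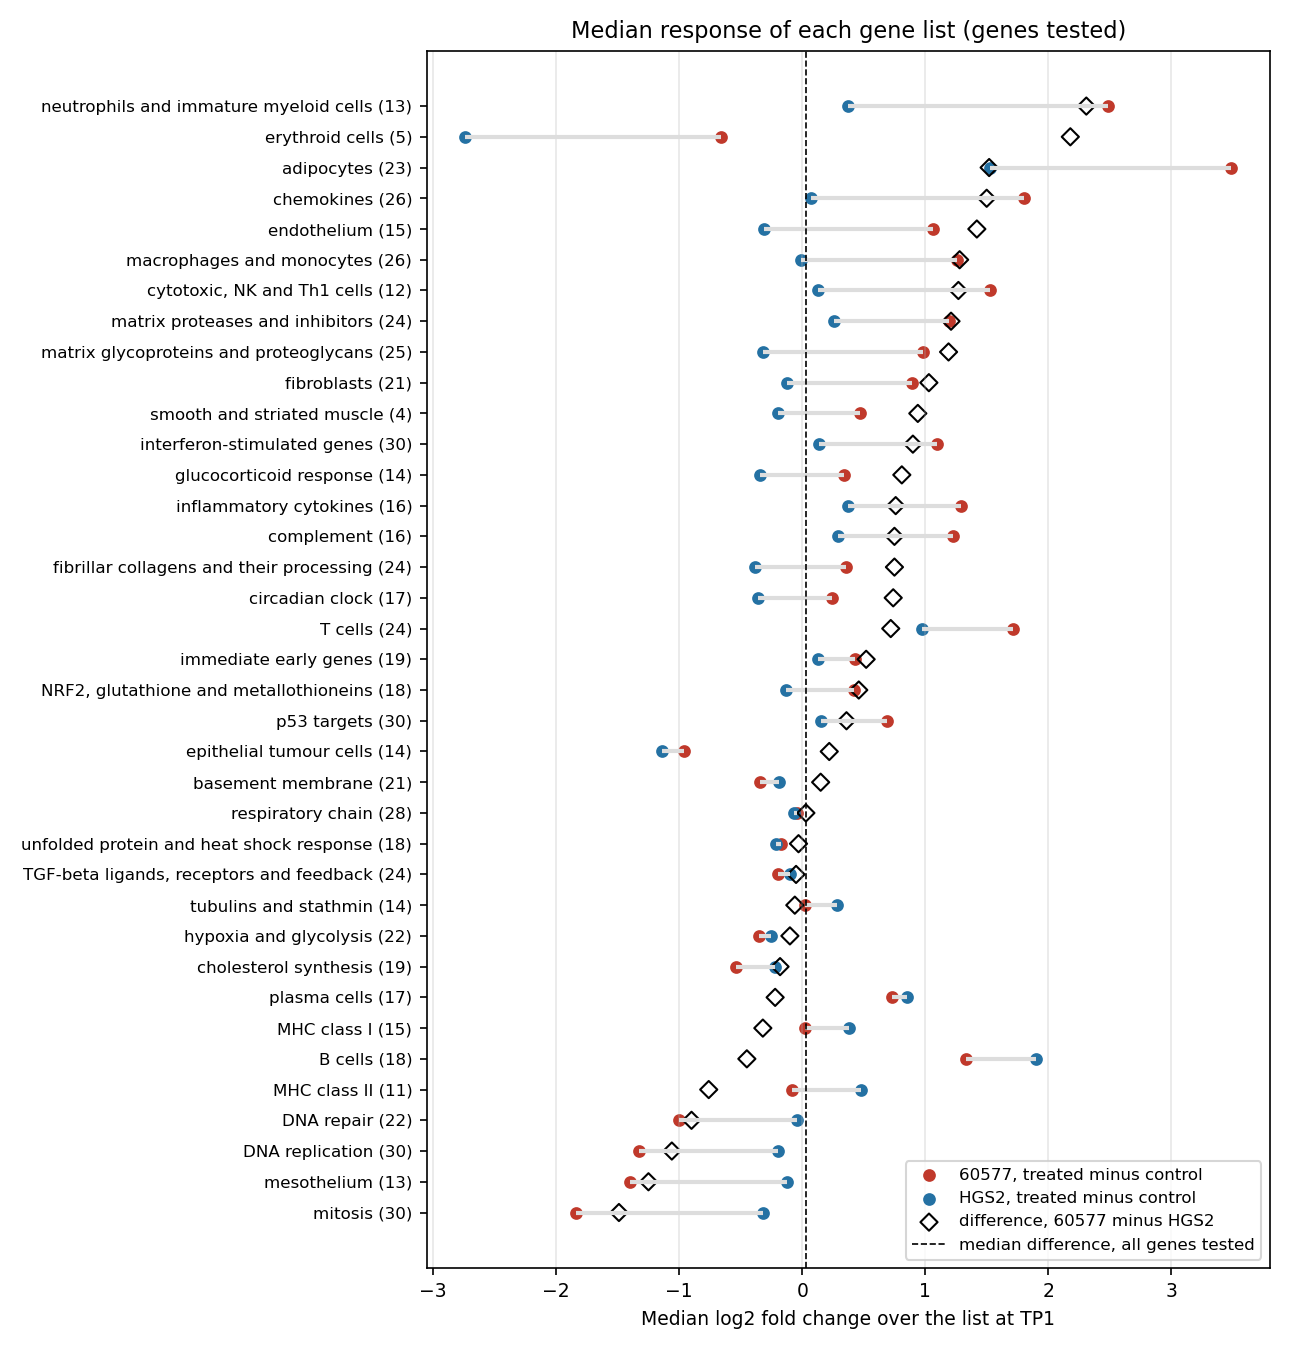
For each gene list on the y axis (number of genes tested in parentheses), points give the median log2 fold change of treated against control tumors at TP1 in 60577 (red) and HGS2 (blue), and open diamonds the median interaction. Mitosis has the lowest median interaction (-1.49) and neutrophils the highest shown (2.31), against 0.03 over all genes (dashed line); the pancreatic acinar list, at 8.67, is not drawn.

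Genes of macrophages were also called on the higher side. Of 26 macrophage and monocyte genes, 3 were called higher (background 0.997%, 1 to 11 across the alternatives). At an unadjusted p below 0.05 stood 12, all on the higher side (background 10.3%). The median was 1.28 (60577 1.26, HGS2 -0.01). Their sum was 2520 to 3630 CPM in 60577 controls and 6970 to 10000 CPM after treatment, and 6230 to 8450 CPM and 5670 to 10100 CPM in HGS2. Folr2 (ENSMUSG00000032725, chr7:101839988-101857194) had 2.64, 2.37 and 3.5 CPM in 60577 controls and 21, 15.7 and 16.6 CPM after treatment. HGS2 tumors held 14.6, 19.4 and 12.5 CPM in controls and 15.6, 12.4 and 11.3 CPM after treatment. Treated 60577 tumors thus lay within or just above the HGS2 range, with an interaction of 2.89 ± 0.52 (adjusted p 0.00705). In the cultured lines Folr2 was at 0.144 CPM (60577) and 0.0897 CPM (HGS2).

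Ctsd, the lysosomal protease cathepsin D, went from 374 to 432 CPM to 1100 to 2120 CPM in 60577 and lay between 565 and 1140 CPM in HGS2. Its interaction was 1.92 ± 0.46 (adjusted p 0.0311), passing in 6 of 12 fits with a tumor left out. Trem2, a lipid receptor of macrophages, went from 26.6, 32.3 and 36 CPM to 115, 66 and 107 CPM and was at 39.2 to 80.3 CPM in HGS2, with an interaction of 1.42 ± 0.35 (adjusted p 0.0361) that passed in 5 of 12. Without HGS2 treated tumor 1 these were 1.71 (adjusted p 0.109) and 1.21 (adjusted p 0.123). Cd300lb, an activating receptor of myeloid cells that was picked after its values were seen, went from 2.74, 3.94 and 4.87 CPM to 46.9, 22 and 46.9 CPM in 60577. It was at 7.42 to 21.2 CPM in HGS2 and 0 CPM in both cultured lines. Its interaction of 2.79 ± 0.50 (adjusted p 0.00705) passed in all 12 such fits.

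The neutrophil list had a median of 2.31 over 13 genes, with 1 called (background 0.997%, 0 to 3 across the alternatives). At an unadjusted p below 0.05 stood 8 of them, all higher (background 10.3%). Fpr2, a receptor for formylated peptides, was low throughout, at 0.521 to 0.882 CPM in 60577 controls, 5.7, 1.63 and 7.96 CPM in treated 60577 tumors and 1.42 to 3.59 CPM in HGS2. Its interaction was 3.27 ± 0.82 (adjusted p 0.0376), passing in 6 of 12 fits with a tumor left out. Of 16 complement genes 1 was called higher (background 0.997%, 0 to 4 across the alternatives), C5ar1, the receptor of the fragment C5a. It was at 20.6 to 28.6 CPM and 54.2 to 99.7 CPM in 60577 and 34.8 to 67.4 CPM in HGS2, with an interaction of 1.72 ± 0.45 (adjusted p 0.0447) that passed in 4 of 12 such fits. Acod1, the enzyme of activated macrophages that makes itaconate, rose in 60577 from 1.08, 1.42 and 1.6 CPM to 28.3, 8.15 and 104 CPM. In HGS2 it was at 11.8, 1.08 and 2 CPM and at 2.92, 2.69 and 2.38 CPM, and the interaction was 6.00 ± 1.33 (adjusted p 0.0195), passing in 8 of 12 such fits.

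Chemokines had a median of 1.5 and 2 of 26 called higher (background 0.997%, 0 to 5 across the alternatives). At an unadjusted p below 0.05 stood 9 of them, all higher (background 10.3%). Cxcl12, the ligand of Cxcr4 that stromal cells secrete, went from 32.9, 42.2 and 58.4 CPM to 245, 169 and 395 CPM in 60577. HGS2 controls were at 473, 593 and 265 CPM and treated HGS2 tumors at 322, 519 and 448 CPM. The interaction was 2.65 ± 0.52 (adjusted p 0.0105), and it passed in all 12 fits with a tumor left out. Cxcl14, a chemokine of fibroblasts and epithelia, was at 10, 21.7 and 20.8 CPM in 60577 controls and at 58.3, 15.2 and 105 CPM after treatment, so that those groups overlapped. The HGS2 groups did not overlap, at 22.6 to 31.5 CPM in controls and 9.32 to 17 CPM after treatment. Its interaction of 2.80 ± 0.63 (adjusted p 0.0207) passed in 9 of 12 such fits.

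Genes of oxidative stress and drug handling were called as well. Of 18 genes of the NRF2, glutathione and metallothionein list, 2 were called higher (background 0.997%, 0 to 4 across the alternatives). At an unadjusted p below 0.05 stood 5, all higher (background 10.3%), and the median was 0.46. Slc7a11, the transporter that imports cystine for glutathione synthesis, was at 4.2, 4.1 and 4.08 CPM in 60577 controls and at 84.7, 16.5 and 108 CPM after treatment. In HGS2 it was at 39.7, 7.15 and 10.9 CPM and at 21.8, 17.9 and 6.66 CPM. The 60577 controls were nearly equal and the treated tumors were spread, with tumor 2 the lowest, and the interaction was 4.39 ± 1.04 (adjusted p 0.0296), passing in 4 of 12 fits with a tumor left out. Srxn1, which repairs oxidized peroxiredoxins, had an interaction of 1.77 ± 0.41 (adjusted p 0.0265) and passed in 6 of 12.

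Ugt1a7c and Abcc4 were picked after their values were seen. Ugt1a7c encodes a glucuronosyltransferase that conjugates drugs, and it shares its last exons with the other genes of the Ugt1a cluster, so its counts may belong in part to them. It went from 5.7, 8.01 and 7.71 CPM to 54.9, 33.4 and 51.5 CPM in 60577 and was at 75, 180 and 325 CPM and at 148, 99.4 and 111 CPM in HGS2, with an interaction of 3.40 ± 0.53 (adjusted p 0.00384). Abcc4, an exporter of organic anions, went from 10.7, 11.5 and 10.7 CPM to 23.4, 19.9 and 27 CPM in 60577 and lay between 27.9 and 43.6 CPM in HGS2. Its interaction was 1.28 ± 0.25 (adjusted p 0.00967). Both passed in all 12 fits with a tumor left out.

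The circadian clock list had 1 of 17 called higher (background 0.997%, 0 to 3 across the alternatives). That gene was Nr1d1, the nuclear receptor Rev-erb alpha, with 9.31 to 12.5 CPM and 31.2 to 53.3 CPM in 60577 and 24.3 to 55.8 CPM in HGS2. Its interaction of 2.22 ± 0.59 (adjusted p 0.0499) passed in 2 of 12 fits with a tumor left out. The hour at which tumors were taken is not given in the sources used here.

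Lists of lymphocytes and antigen presentation had 0 called by edgeR and 0 in every alternative, DESeq2 and limma-voom included. Their medians were 0.72 for 24 T cell genes, 1.27 for 12 cytotoxic cell genes, -0.45 for 18 B cell genes, -0.22 for 17 plasma cell genes and -0.32 for 15 MHC class I genes. At an unadjusted p below 0.05 stood 1 B cell gene (higher) and 0 genes of the other lists (background 10.3% higher and 8.53% lower). All 11 MHC class II genes had a negative interaction (median -0.76). The plasma cell median ran from -1.66 without 60577 treated tumor 2 to 0.65 without HGS2 treated tumor 3. The B cell median ran from -1.46 without 60577 treated tumor 2 to 1.45 without HGS2 treated tumor 3, the tumors with the highest B cell sums of their groups (242 and 640 CPM). Interferon-stimulated genes had a median of 0.90 over 30 genes, 28 of them positive, with 0 called in any alternative. At an unadjusted p below 0.05 stood 3 of the 30, all higher, near the background of 10.3%. The adipocyte list (median 1.52, 23 genes, 0 called, 2 at an unadjusted p below 0.05) changed sign to -0.56 without 60577 treated tumor 2, which held 3080 CPM of these markers. The 28 respiratory chain genes lay near the median of all genes at 0.03, with 0 called and 0 at an unadjusted p below 0.05. The 17 acinar genes, all positive, had a median of 8.67, with 0 called and 2 at an unadjusted p below 0.05, and the median was -1.21 with the 7SL share as a covariate.

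The remaining lists also had 0 called by edgeR and at most 2 in any alternative. Inflammatory cytokines had a median of 0.76, with 5 higher and 1 lower at an unadjusted p below 0.05, and Nlrp3, the inflammasome sensor, had an interaction of 1.69 ± 0.66 (adjusted p 0.16). Immediate early genes had a median of 0.52 (4 higher and 1 lower at an unadjusted p below 0.05), glucocorticoid response genes 0.81 (3 higher), endothelial genes 1.42 (2 higher), erythroid genes 2.18 (1 higher) and muscle genes 0.94 (0). Over all genes the shares at that p were 10.3% higher and 8.53% lower. Hypoxia and glycolysis genes (-0.10), cholesterol synthesis (-0.18), unfolded protein and heat shock genes (-0.03) and the tubulins and stathmin (-0.06) had medians close to that of all genes, with 1, 3, 1 and 2 genes at an unadjusted p below 0.05. Stmn1, the protein that frees tubulin from microtubules, had an interaction of -1.86 ± 0.57 (adjusted p 0.0784), and Car9, the hypoxia-induced carbonic anhydrase, one of -2.40 ± 0.89 (adjusted p 0.139).

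The largest interactions were mostly of genes at low levels. Npy, which encodes neuropeptide Y, was at 0 CPM in all 3 60577 controls and at 1.91, 0.106 and 2.52 CPM after treatment. HGS2 control 3 held 34.8 CPM of it, against 0.173 to 2.35 CPM in the other 5 HGS2 tumors, so its fitted value of 12.19 (adjusted p 0.0369) is no measure of a fold change. Among genes above 3 counts in at least 1 tumor of each group, Mgam, the maltase-glucoamylase that digests starch in the intestine, had the highest value, 7.79 ± 1.29 (adjusted p 0.00433). It was at 0, 0.197 and 0.0653 CPM in 60577 controls and at 2.51, 0.886 and 5.83 CPM after treatment, and at 2.07, 5.08 and 24.2 CPM and at 0.916, 1.31 and 2.66 CPM in HGS2. It passed in all 12 fits with a tumor left out, and its value was 6.28 without HGS2 control 3.

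Lrrc17, a secreted leucine-rich repeat protein, went from 0.098 to 0.158 CPM to 0.583 to 2.91 CPM in 60577. HGS2 controls held 18, 21.6 and 160 CPM and treated HGS2 tumors 8.87 to 14.7 CPM, and the interaction was 6.21 ± 1.49 (adjusted p 0.0307), or 4.48 (adjusted p 0.0806) without HGS2 control 3. L1cam, a neural adhesion molecule also found on carcinoma cells, was at 1.06 to 1.63 CPM and 7.69 to 12.6 CPM in 60577. It was at 52 CPM in HGS2 control 1 and between 1.45 and 6.55 CPM in the other HGS2 tumors, with an interaction of 5.06 ± 1.09 (adjusted p 0.0164). Without HGS2 control 1 the value of L1cam was 2.17 and not called. Thsd7a (4.16), Fbxl2 (4.13), Abca6 (4.07) and the unnamed genes Gm42517 (4.46) and Gm42679 (3.90) completed the 10 highest under the rule. Abca6 and Gm42679 passed in 4 of 12 fits with a tumor left out, and without HGS2 control 3 their values were 3.01 (adjusted p 0.108) and 2.68 (adjusted p 0.128). Fbxl2, Thsd7a and Gm42517 passed in 6, 9 and 10 such fits, and the value of Gm42517 was 2.75 without HGS2 control 1.

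Among the 10 lowest, 5 are protein coding and 5 are not, or lack a settled type. The noncoding RNA Lockd (ENSMUSG00000098318, chr6:134929092-134956798), which lies downstream of the cell cycle inhibitor gene Cdkn1b, was at 20.9, 15.3 and 15.8 CPM in 60577 controls and at 3.26, 3.58 and 2.17 CPM after treatment. In HGS2 it was at 7.88, 3.24 and 2.76 CPM and at 6.56, 3.83 and 3.37 CPM, and its interaction of -2.51 ± 0.48 (adjusted p 0.00887) passed in all 12 fits with a tumor left out. Flrt1, a membrane protein of the fibronectin and leucine-rich repeat family, fell in 60577 from 202, 180 and 164 CPM to 55.5, 70.6 and 45.3 CPM. It was low in HGS2, at 1.76, 5.46 and 4.01 CPM and at 6.85, 4.94 and 9.67 CPM, and its interaction was -2.61 ± 0.54 (adjusted p 0.014). In culture it was at 82.6 CPM in the 60577 line and 76.7 CPM in the HGS2 line.

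Srcin1, an inhibitor of Src signaling, went from 31.7, 30.8 and 21.1 CPM to 3.13, 6.27 and 4.16 CPM in 60577, with at most 2.22 CPM in any HGS2 tumor and an interaction of -4.17 ± 0.83 (adjusted p 0.0105). The homeobox gene Lhx2 went from 4.13, 4.69 and 4.57 CPM to 0.846, 1.49 and 0.699 CPM in 60577. It stayed at or below 1.71 CPM in HGS2, with an interaction of -3.64 ± 0.87 (adjusted p 0.0305) that came to -2.71 (adjusted p 0.147) without HGS2 treated tumor 1. Klhdc7b (-4.40) and Odf3b (-3.05) lie close together on chromosome 15, and both were under 1.5 CPM in every HGS2 tumor. They passed in 3 and 6 of 12 fits with a tumor left out. Klhdc7b was at 0 to 0.251 CPM in HGS2 controls and at 0.175 to 1.45 CPM after treatment, with a median of 0.302 CPM. Its change in 60577 alone was not called (adjusted p 0.0661). The antisense RNA Dlx4os (-2.90) and the unnamed or untyped genes Gm49159 (-3.73), AC093020.1 (-2.68) and Gm19692 (-2.58) made up the rest. In that order they passed in 9, 11, 3 and 6 of 12 fits with a tumor left out. Whether the counting used the strand of the reads is not given in the sources used here, so reads of Dlx4os and of genes it overlaps may not be separable.

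At TP2 the same difference was measured in other mice. Of the 162 genes higher at TP1, 125 had a positive TP2 interaction, as did 8623 of all 16241 genes. The 162 genes had a median of 0.65, and 35 were called higher, where 3.21% of all genes were, and 1 lower. Of the 73 lower genes, 65 were negative, as were 7618 of all 16241 genes. The 73 genes had a median of -0.79, and 26 were called lower, where 3.68% of all genes were, and none was called higher. The division genes stayed low, with TP2 medians of -2.18 for mitosis, -1.72 for DNA replication and -1.26 for DNA repair, and values of -2.55 for Mcm6 (adjusted p 0.0028) and -2.34 for Cenpf (adjusted p 0.012). Ddr2 (2.49, adjusted p 0.0083), Prrx1 (1.05, adjusted p 0.036) and Nr1d1 (2.11, adjusted p 0.022) were called higher again.

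Macrophage and neutrophil lists did not keep their sign at TP2, with medians of -0.18 and -2.52, and fibrillar collagens were at 0.05. Folr2 was at 0.45 (adjusted p 0.55), Col3a1 at 0.66 (adjusted p 0.38) and Cxcl12 at 0.24 (adjusted p 0.77), while Cxcl14 was at -2.0 (adjusted p 0.03), the opposite of its TP1 value. Whether the TP1 and TP2 values of these genes differ was not tested.

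**Figure D5:**
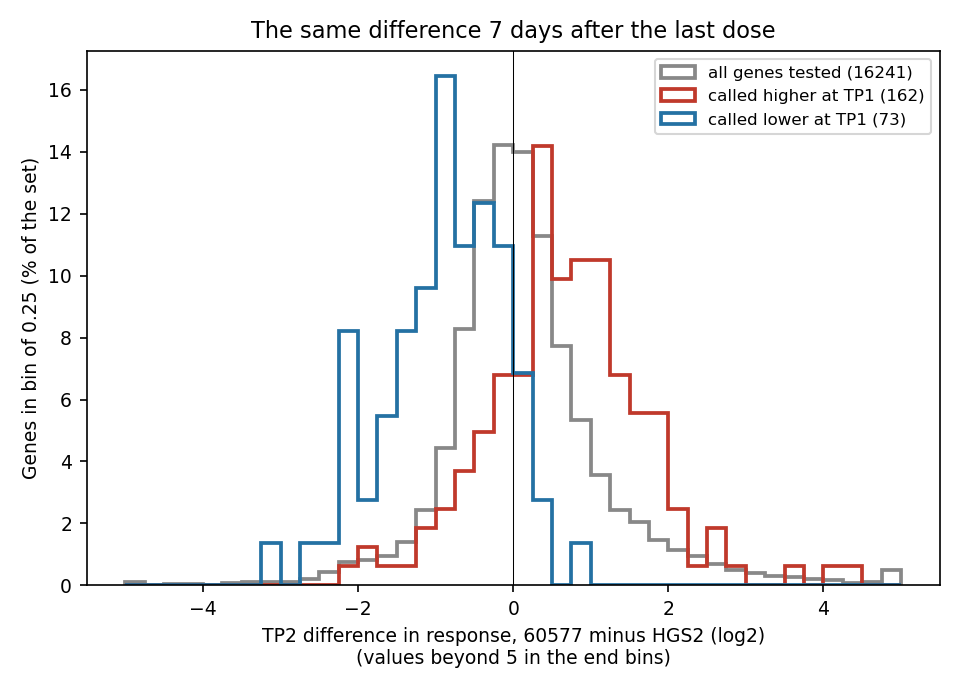
The x axis is the difference in response between the models at TP2 (60577 minus HGS2, log2, in bins of 0.25) and the y axis the percentage of each gene set in a bin. The 162 genes higher at TP1 (red) have a median of 0.65 and the 73 lower genes (blue) of -0.79, against 0.05 for all 16241 genes (gray).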

How the data were processed

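Omental tumors of mice and 2 cell lines were sequenced in bulk after depletion of ribosomal RNA. Per the labels and the study's methods, the authors trimmed reads with Trim Galore 0.6.5, mapped them to GRCm38 with STAR 2.7.0f and estimated counts per gene with RSEM. The deposited values are these expected counts for 55487 genes, unfiltered and not normalized. They were rounded. Genes with at least 1 CPM in 25% of tumors were kept, scaled by TMM and fitted together over 33 tumors in 10 groups with edgeR 4.0.16 (R 4.3.3, quasi-likelihood test, two-sided, Benjamini-Hochberg over all 16241 genes). HGS2 TP3 treated replicate 1, which the study's tables omit, was left out. A gene was called at an adjusted p below 0.05 and an absolute log2 value above 1. The standard error (SE) is the absolute log2 value divided by the square root of F.

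Symbols, types and positions came from GENCODE M21 (55227 genes matched, 260 not). CPM values per tumor used TMM-scaled libraries. The p-values rest on the spread between tumors within a group, each tumor from 1 mouse. This spread was estimated jointly over the 33 tumors in 10 groups, not from the 3 tumors of each TP1 group alone. A fit of the 12 TP1 tumors alone called 10 genes. Depth in the 12 tumors was 23044297 to 34334182 counts, which limits genes under about 1 CPM. Tumors of a group were checked for copies, and chi-square per degree of freedom was 9.38 to 571 over 12 pairs, so none was a copy. Between controls it was 20.5, 25.5 and 9.38 in 60577 and 210, 571 and 432 in HGS2.

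The contrast, the 38 gene lists (784 entries) and the genes named were chosen with earlier results of these data known. Named were the 10 highest and 10 lowest called genes with more than 3 counts in at least 1 tumor of each group and no overlap in at least 1 model, up to 4 called members of each list, and where none was called the 2 with the lowest p-value. A gene that this rule names is not reported here. A further 13 genes were picked after their values were seen. Lists are described by counts and medians without a test. The fit was tested on simulated data with 1 spread per gene for all groups, so without the wider spread among HGS2 controls. It recovered 61 of 100 planted changes of 2 log2 units and 83 of 100 of 3 log2 units. Of 16041 unchanged genes 5 were called. Alternatives were DESeq2 1.42.0 (size factors and Wald test), limma-voom 3.58.1, other filters, the replicate number as a block, a length and GC offset (99.9% of genes had both), other sets of tumors, acinar and 7SL covariates, and each TP1 tumor left out. Promoters were the 250 bases before the RefSeq start. Figures were drawn with matplotlib 3.10.9.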

Additional observations from a re-analysis of the deposited data

Results flagged for a closer look

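The interaction is itself the test of a difference in response between the models, so each named gene past its threshold is listed here with its log2 value, 60577 minus HGS2. There were 235 such genes, 162 higher and 73 lower, of which 55 were named (34 higher, 21 lower). The largest positive values were Npy (12.19), Mgam (7.79), Lrrc17 (6.21), Acod1 (6.00), L1cam (5.06), Gm42517 (4.46), Slc7a11 (4.39), Thsd7a (4.16), Fbxl2 (4.13), Abca6 (4.07) and Gm42679 (3.90). In Npy the 60577 controls were all at 0, so its value is no bound. Next came Ugt1a7c (3.40), Adam8 (3.37), Fpr2 (3.27), Ddr2 (3.22), Folr2 (2.89), Cxcl14 (2.80), Cd300lb (2.79), Cxcl12 (2.65), Ttc12 (2.44), Mmp19 (2.36), Pdgfra (2.25) and Nr1d1 (2.22). Values from there down to 1 were found for Col3a1 (2.06), Prrx1 (1.93), Ctsd (1.92), Srxn1 (1.77), Tgfbr3 (1.75), C5ar1 (1.72), Col5a1 (1.5), Dse (1.47), Trem2 (1.42), Rap2b (1.35) and Abcc4 (1.28). On the lower side the largest were Klhdc7b (-4.40), Srcin1 (-4.17), Gm49159 (-3.73), Lhx2 (-3.64), Odf3b (-3.05), Dlx4os (-2.90), AC093020.1 (-2.68), Flrt1 (-2.61) and Gm19692 (-2.58). The remaining lower genes were Lockd (-2.51), Igsf9 (-2.31), Cenpf (-2.27), Ect2 (-2.09), Mcm6 (-1.74), Ezh2 (-1.66), Tle4 (-1.58), Ncapd2 (-1.51), Rad51b (-1.5), Cdt1 (-1.45), Msh6 (-1.40) and Brca2 (-1.39). No gene group was tested as a set.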

How the results depend on the processing

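The 235 calls (162 higher, 73 lower) became 111 (81, 30) with no filter on low counts, 721 (460, 261) with the DESeq2 Wald test, 144 (87, 57) with the length and GC offset and replicate block together, 10 (8, 2) with only the 12 TP1 tumors, 154 (120, 34) with all 34 tumors, 497 (317, 180) with the acinar covariate and, an alternative chosen after seeing the data, 56 (40, 16) without the 2 HGS2 tumors high in acinar genes. With a TP1 tumor left out they ranged from 57 to 649 in all, from 37 to 311 higher and from 18 to 362 lower. DESeq2 size factors (274), filterByExpr (201), limma-voom (214, of which 118 higher and 96 lower), the length and GC offset (245, of which 152 and 93), the 7SL covariate (342) and a prior count of 2 (235) gave counts within 1.5 times. In HGS2 alone DESeq2 called 11, and leaving out a tumor gave 0 to 138, the highest without HGS2 control 2. In 60577 alone the 1605 calls ranged, with a TP1 tumor left out, from 961, without 60577 control 1, to 1790, without HGS2 control 1. The other alternatives gave from 1097, with only the 12 TP1 tumors, to 1955, with the DESeq2 Wald test. Causes were not tested. Same-numbered tumors did not deviate together (correlations of 0.13, 0.11 and -0.05 in 60577 and -0.16, -0.28 and 0.09 in HGS2), so the numbers only name tumors, and the replicate block gave 209 calls. Of 2703 values of named genes under alternatives, 2235 kept their direction and side of the threshold, 429 lost the call, 37 gained it and 2 changed sign: Cldn3 ranged from -0.83, without HGS2 control 3, to 4.26 with a tumor left out, and Ndufb8 was 0.06 without the 2 HGS2 tumors high in acinar genes, and neither was called with all tumors. With 3 tumors a group, a gene that was not called may still differ, at low and at higher CPM. For example, all 30 mitosis genes had a negative interaction, and 0 to 30 of them were called across the alternatives.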
